A study of Mus musculus with 6 samples.

Results

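Heterozygosity for the exon 2 deletion of Cas was compared with wild type in primary mouse embryonic fibroblasts, using 4 of the 6 expression arrays of the series: 2 of heterozygotes (Cas exon 2+/∆) and 2 of wild type (Cas exon 2+/+). The members are all 45037 probe sets other than controls, on arrays chosen by their labelled genotype alone and without use of any measured value. Wild-type cells carry 2 intact copies of the exon and heterozygous cells 1. The remaining 2 arrays are of homozygotes (Cas exon 2∆/∆, 0 intact copies). Their levels are given beside those of the heterozygotes for some genes and gene lists, as a description. Heterozygotes and homozygotes would be set against the same wild-type arrays. Each array holds RNA of 1 embryo, taken at 12.5 days post coitum from crosses between heterozygotes. The deletion is carried in the germ line, so every cell of an embryo has it, and no drug or other agent was applied to any group. The cultures were grown from what remained of the body once the head and the inner organs had been taken for genotyping. They are therefore cultures of mixed origin rather than of a purified cell type, and the sources used here give no passage number. The strain label B6 is on every array except wild type 1, which carries none.

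Cas, or p130Cas, is the product of Bcar1. It is a docking protein of focal adhesions, the sites where integrins tie the actin cytoskeleton to the extracellular matrix. Its SH3 domain, which exon 2 encodes, binds focal adhesion kinase and protein tyrosine phosphatases; its substrate domain is phosphorylated by Src family kinases and then recruits Crk, through which Dock1 and Rac drive migration and membrane ruffling. In fibroblasts, Cas is known for its roles in actin stress fibre organisation, cell spreading, migration and Src transformation. The comparison of heterozygotes with wild type asks what the loss of 1 copy of the exon does to gene expression.

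No gene passed the test. Of 22519 probe sets above the intensity filter, 0 were higher and 0 were lower at an adjusted p under 0.05 (limma with Benjamini-Hochberg adjustment, 0% in each direction), and the smallest adjusted p was 0.838. The unadjusted p was under 0.05 for 1185 probe sets, or 5.26% of those tested, of which 641 were higher and 544 lower. Higher values made up 54.1% of them, 60.4% when arrays were only centred on their medians, and 85.9% of 1440 when the deposited values were used without normalization; without normalization the median of all genes lay 0.11 higher in heterozygotes on the log2 scale. Levels and differences below are log2 intensities after quantile normalization, with the standard error (SE) of a difference from the limma fit, and they are descriptions of these 4 embryos. The replicates are separate embryos, so p-values reflect how embryos and their cultures differ, and 2 of each genotype limit the precision. A gene is called separated where both heterozygote arrays lay above, or both below, both wild-type arrays. Of the 11373 genes measured, 1999 (17.6%) were separated with higher and 2087 (18.4%) with lower values in heterozygotes; 270 (2.37%) were higher and 222 (1.95%) lower at an unadjusted p under 0.05. The median difference over all genes was 0.0011, with 50.2% of genes above 0. These shares are the background against which the counts for each gene group stand. A count near these shares says nothing particular about its group.

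Wild type 1 stood apart from the other arrays, and the sexes of the embryos were not balanced. Its correlation with the other arrays over the tested probe sets lay between 0.918 and 0.954, while every other pair lay between 0.955 and 0.978. The 2 wild-type arrays differed by a median of 0.34 log2 units and the 2 heterozygote arrays by 0.28. Wild type 2 differed from heterozygote 1 by a median of 0.22, which is less than either genotype differed within itself. The median of each gene list below with more than 1 measured gene is therefore also given against wild type 1 alone and wild type 2 alone. Xist, the RNA that silences an X chromosome in female cells, read 8.82 and 4.23 in wild type, 10.27 and 10.29 in the heterozygotes and 3.70 and 5.31 in the homozygotes. Eif2s3y, a Y-linked translation factor gene, read 3.61 and 8.37 in wild type, 1.24 and 1.70 in the heterozygotes and 8.76 and 8.61 in the homozygotes. Uty, a Y-linked histone demethylase gene, read 3.72 and 6.0 in wild type and 2.77 and 2.13 in the heterozygotes. Kdm5d, also Y-linked but below the filter, read 1.52 and 7.10 in wild type and 1.49 and 1.16 in the heterozygotes (brightest probe set). Both heterozygotes thus showed a female pattern, and wild type 2 and both homozygotes a male pattern. Wild type 1 showed a female pattern, with Eif2s3y and Uty between the heterozygotes and wild type 2 and Kdm5d near the heterozygotes. Sex and genotype were partly confounded, and the part of sex in any difference below was not tested. The sex covariate used below is a standardized score, Xist minus the mean of Eif2s3y, Uty and Kdm5d. It was 0.60 and -0.88 in wild type, 1.03 and 1.06 in the heterozygotes and -1.04 and -0.77 in the homozygotes. Within genotypes it varied mostly between the wild-type arrays, so fits with it cannot tell sex from other differences between them.

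Bcar1 itself read 9.37 and 8.42 in wild type, 8.19 and 8.32 in the heterozygotes and 8.08 and 8.43 in the homozygotes. Both heterozygote values lay below both wild-type values, but wild type 2 was only 0.098 above the nearer of them. The difference was -0.64 (SE 0.35), or 1.56-fold lower, with an adjusted p of 0.838; it was -1.12 against wild type 1 and -0.16 against wild type 2. A second probe set of the gene differed by -0.37. The sources used here do not place the probes with respect to exon 2, so these readings do not check the genotypes. Efs, a docking protein of the Cas family, read 7.86 and 8.11 in wild type and 7.60 and 7.72 in the heterozygotes, a difference of -0.33 (SE 0.24) with an adjusted p of 0.85.

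The partners of Cas lay close to their wild-type levels as a group. Of 27 measured genes of Cas signalling and focal adhesions, 10 were higher and 17 lower, and 3 and 5 were separated (17.6% and 18.4% over all genes). The median difference was -0.050 against 0.0011 for all genes, with -0.21 against wild type 1 and 0.031 against wild type 2. Ilk, the pseudokinase that links integrins to parvin and actin, read 10.98 and 10.53 in wild type and 10.24 and 10.44 in the heterozygotes, a difference of -0.41 (SE 0.28). Fyn, a Src family kinase that phosphorylates Cas, overlapped between the genotypes, with 8.54 and 7.79 in wild type against 7.59 and 7.84 in the heterozygotes. Tns3, a tensin that binds integrin tails, was the highest of the group at 0.50 (SE 0.40), with 11.48 and 10.68 in wild type against 11.56 and 11.60 in the heterozygotes. Of 13 integrin subunits, 6 were higher and 7 lower, with a median of -0.17. That median was -0.47 against wild type 1 but 0.059 against wild type 2, with 8 of 13 higher, and it was also above 0, at 0.11, without heterozygote 1. The collagen-binding subunit Itga1 read 5.97 and 6.60 in wild type and 7.68 and 6.84 in the heterozygotes, a difference of 0.98 (SE 0.36). The laminin-binding subunits Itga3 and Itga7 differed by -0.70 (SE 0.38) and -0.67 (SE 0.35). The laminin-binding subunit Itga6 had the lowest difference of the group, -0.81 (SE 0.49), but its heterozygote values, 7.12 and 7.60, lay on both sides of wild type 2 at 7.43.

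The genes with the smallest unadjusted p among those separated were ranked in each direction. They were selected for their separation, so their differences are descriptions, and each had an adjusted p of 0.838 in limma. A gene can pass the intensity filter, which kept means down to 4.57, through the genotype where it is high. Differences from dimmer readings, such as Rimklb in wild type or Ceacam1 in the heterozygotes, are therefore uncertain in size. Rimklb, a ligase that joins glutamate to N-acetylaspartate, led the higher genes with 2.55 and 3.42 in wild type, 5.93 and 6.44 in the heterozygotes and 6.95 and 5.18 in the homozygotes, a difference of 3.20 (SE 0.61). Rdh5, a retinol dehydrogenase, read 4.72 and 4.20 in wild type, 5.83 and 5.78 in the heterozygotes and 4.92 and 4.56 in the homozygotes. In Rdh5 the homozygote arrays were thus nearer to wild type than to the heterozygotes, and in Rimklb they were not. Map2, the microtubule-associated protein of dendrites, read 4.96 and 6.46 in wild type and 8.39 and 7.99 in the heterozygotes, a difference of 2.48 (SE 0.51), and its other probe sets gave 1.71 and 2.14. Tenm4, a teneurin adhesion protein, read 4.79 and 5.09 in wild type and 6.83 and 6.87 in the heterozygotes, a difference of 1.91 (SE 0.40).

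Scg2, a granin of secretory vesicles, had the largest difference of these genes at 4.64 (SE 1.11), with 1.48 and 5.07 in wild type and 8.63 and 7.19 in the heterozygotes. Its wild-type arrays were themselves far apart, so the difference was 6.43 against wild type 1 and 2.84 against wild type 2. Car3, a carbonic anhydrase of muscle and fat, read 3.55 and 4.25 in wild type and 5.88 and 6.61 in the heterozygotes, a difference of 2.34 (SE 0.55). Epha3, an ephrin receptor tyrosine kinase, read 7.20 and 8.34 in wild type and 9.41 and 9.27 in the heterozygotes, a difference of 1.57 (SE 0.39). Ppargc1b, a coactivator of mitochondrial genes, read 3.34 and 4.11 in wild type and 5.66 and 5.12 in the heterozygotes, a difference of 1.67 (SE 0.41). The homozygotes were as high as the heterozygotes or higher in the last of these, at 6.16 and 5.29. The remaining higher genes, Pelp1, Lmo7, Homer2, Adh7, Irx3, Adamts9 and Pcdhb21, differed by between 1.0 (Lmo7) and 1.68 (Adamts9). Homer2 differed by 1.06, but by 0.48 on its other probe set. Pcdhb21 belongs to a cluster of near-identical protocadherins, so its reading is uncertain. Ranking by the gap between the genotypes added Aqp4, a water channel, with 2.91 and 4.34 in wild type and 5.94 and 7.15 in the heterozygotes. It also added Egfl6, a basement membrane EGF-like protein encoded on the X chromosome, with 1.77 and 6.30 in wild type, 7.99 and 7.64 in the heterozygotes and 8.85 and 7.70 in the homozygotes. For Egfl6 the single low array was wild type 1, which lay 6.05 below the heterozygote mean, against 1.51 for wild type 2.

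The lower genes were chosen in the same way. Brsk1, a kinase of neuronal polarity, read 6.05 and 6.39 in wild type, 3.90 and 4.55 in the heterozygotes and 6.02 and 5.63 in the homozygotes, a difference of -1.99 (SE 0.31). Slc16a13, a monocarboxylate transporter, read 6.12 and 6.16 in wild type and 4.72 and 4.88 in the heterozygotes, a difference of -1.33 (SE 0.21). Hcrt, the precursor of orexins, read 6.43 and 6.18 in wild type and 4.61 and 3.40 in the heterozygotes, a difference of -2.30 (SE 0.40). The homozygotes lay between the other genotypes in Slc16a13 (5.23 and 5.37) and in Hcrt (5.63 and 5.61). Aldh1a7, an aldehyde dehydrogenase, read 8.65 and 8.51 in wild type, 7.09 and 6.60 in the heterozygotes and 6.76 and 7.41 in the homozygotes, a difference of -1.74 (SE 0.31). It is a near copy of Aldh1a1, and probes may not tell them apart; Aldh1a1 read 7.42 and 7.47 in wild type and 6.76 and 6.81 in the heterozygotes, a difference of -0.66 (SE 0.24). Ceacam1, an adhesion molecule of the immunoglobulin superfamily, had the lowest difference of these genes at -2.69 (SE 0.55), with 6.11 and 5.33 in wild type against 2.24 and 3.83 in the heterozygotes. Ramp3, which modifies the calcitonin receptor family, read 5.79 and 5.64 in wild type and 3.54 and 4.46 in the heterozygotes. Alox5, the lipoxygenase that begins leukotriene synthesis, read 5.49 and 6.17 in wild type and 4.09 and 4.32 in the heterozygotes, a difference of -1.62 (SE 0.33). The other lower genes, Zfp385c, Kcnn4, Nnat, Ano1, Septin3, Prss16, Il15 and Alkbh2, differed by between -1.68 (Ano1) and -1.06 (Alkbh2). Septin3 differed by -1.34, but by -0.53 on its other probe set. Against each wild-type array alone, every one of these higher and lower genes kept their direction, as their selection requires.

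**Figure D1:**
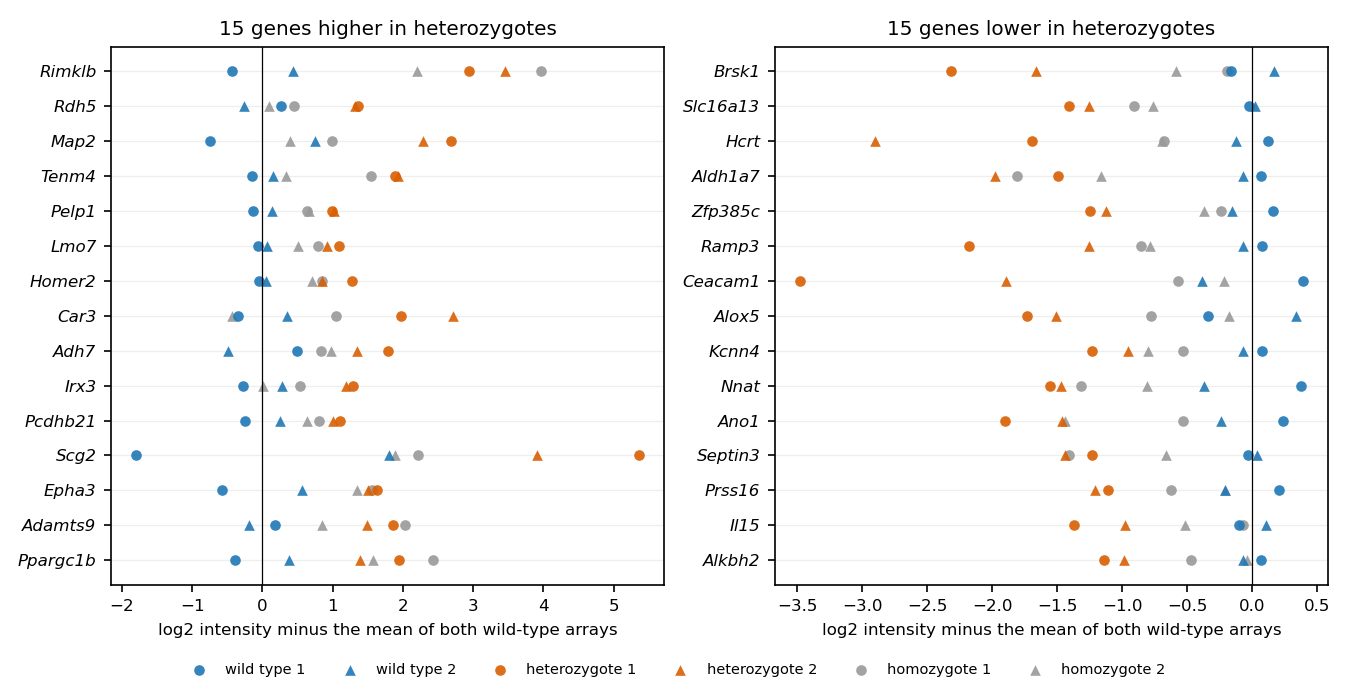
The 15 higher (left) and 15 lower (right) genes with the smallest unadjusted p among separated genes, 1 point per array, plotted as log2 intensity minus the mean of both wild-type arrays; homozygote arrays are grey. The heterozygote points of each gene lie beyond both wild-type points because the genes were chosen so, with mean differences from 1.00 (Lmo7) to 4.64 (Scg2) on the left, while the grey points fall at or beyond the heterozygotes for some genes and near wild type for others.

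Collagen genes had higher readings in both heterozygotes. All 17 measured collagens of the list lay above wild type, and 16 were separated (17.6% of all genes were separated in that direction). At an unadjusted p under 0.05, 8 were higher (2.37% over all genes) and none lower. The median difference of the 17 was 0.72 against 0.0011 for all genes. It was 1.11 against wild type 1 and 0.52 against wild type 2, with 17 and 16 genes higher. Col6a3, a chain of the microfibrillar collagen VI, read 8.87 and 10.32 in wild type, 11.02 and 11.54 in the heterozygotes and 11.83 and 10.74 in the homozygotes, a difference of 1.68 (SE 0.57) and 3.22-fold. Wild type 1 was the low array here. Col16a1, a fibril-associated collagen, read 7.49 and 7.98 in wild type and 8.55 and 8.94 in the heterozygotes, a difference of 1.01 (SE 0.29). Col18a1, which holds endostatin, read 7.46 and 7.99 in wild type and 9.27 and 8.76 in the heterozygotes, with the homozygotes at 8.16 and 7.17. Col12a1, another fibril-associated chain, read 8.17 and 9.21 in wild type and 9.66 and 9.87 in the heterozygotes, a difference of 1.08 (SE 0.36). Col24a1, a minor fibrillar collagen, had the smallest difference, 0.17 (SE 0.61), and its heterozygote values of 3.63 and 5.13 lay on both sides of wild type.

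The promoters of 13 of the 17 collagens were found in RefSeq (GRCm38.p6), as 300 bases from 250 before to 50 after the transcription start. The CCAAT box (CCAAT or ATTGG, both strands), which NF-Y binds at collagen promoters, was in 5 of their 15 promoters (33.3%) against 37.4% of all 32851. The promoter of Col1a2, a chain of the main fibrillar collagen with a difference of 0.34 (SE 0.24), is shown beside that of Col5a3, with a difference of 1.27 (SE 0.46), because both hold the box; they were chosen after their values were seen. Capitals mark the CCAAT box. Col1a2 lies at chr6:4505368-4505667 on the forward strand and Col5a3 at chr9:20815018-20815317 on the reverse strand.
Col1a2: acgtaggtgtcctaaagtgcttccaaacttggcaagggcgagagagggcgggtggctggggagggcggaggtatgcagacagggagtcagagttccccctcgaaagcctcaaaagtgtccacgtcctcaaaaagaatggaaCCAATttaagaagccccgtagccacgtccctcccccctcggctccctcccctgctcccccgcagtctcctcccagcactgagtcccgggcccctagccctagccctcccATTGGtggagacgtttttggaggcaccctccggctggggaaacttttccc
Col5a3: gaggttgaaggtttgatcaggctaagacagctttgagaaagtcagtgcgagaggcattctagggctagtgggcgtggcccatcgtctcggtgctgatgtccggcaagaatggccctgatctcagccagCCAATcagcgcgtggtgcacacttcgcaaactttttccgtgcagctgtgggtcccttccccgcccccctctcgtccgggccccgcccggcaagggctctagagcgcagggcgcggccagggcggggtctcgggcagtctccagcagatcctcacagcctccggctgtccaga
The box begins 109 bases before the start in Col1a2 and 122 bases before it in Col5a3. A second match in Col1a2 begins at the start site.

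**Figure D2:**
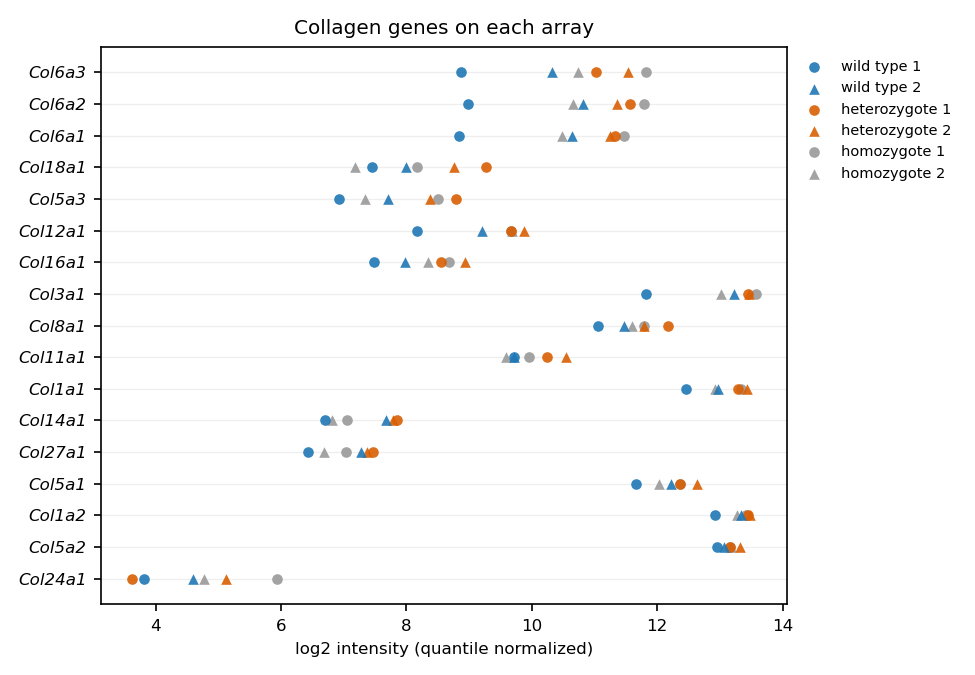
Log2 intensity of each of the 17 measured collagens on the 6 arrays, ordered by difference between heterozygotes and wild type; homozygote arrays are grey. Both heterozygote points lie to the right of both wild-type points in 16 genes, and wild type 1 is the lowest of the 4 arrays in most of them, such as Col6a3 at 8.87.

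Other matrix genes also had mostly higher readings, with wild type 1 often the low array. Of 30 measured matrix glycoproteins and proteoglycans, 25 were higher, 14 were separated higher (17.6% over all genes) and none lower. Of these 30, 8 were higher at an unadjusted p under 0.05 (2.37% over all genes). Their median was 0.66, or 1.09 against wild type 1 and 0.33 against wild type 2. Postn, periostin of collagen-rich tissue, read 11.26 and 12.03 in wild type, 12.76 and 12.74 in the heterozygotes and 12.78 and 12.67 in the homozygotes, a difference of 1.11 (SE 0.30). Ccn3, a matricellular protein, had the highest difference of the group at 2.62 (SE 0.89), with 7.57 and 10.03 in wild type against 11.90 and 10.95 in the heterozygotes. Fbn2, the fibrillin of embryonic microfibrils, read 7.21 and 9.28 in wild type and 10.0 and 10.75 in the heterozygotes, a difference of 2.14 (SE 0.74). Omd, a small leucine-rich proteoglycan of bone, read 4.11 and 4.77 in wild type and 6.80 and 5.80 in the heterozygotes. At the other end, Ccn2, a matricellular gene that responds to TGF-beta and to YAP, differed by -0.39 (SE 0.51): wild type 1 was highest at 13.32, and wild type 2 at 11.92 lay between heterozygotes at 11.83 and 12.63. Of 13 basement membrane genes, 12 were higher and 6 separated higher (17.6% over all genes). But they had a median of only 0.16 (0.18 against wild type 1 and 0.16 against wild type 2), and none was at an unadjusted p under 0.05. The laminin chain Lama4 led them with 7.06 and 9.46 in wild type against 10.07 and 9.94 in the heterozygotes, and the laminin chain Lamb1 stood last with 11.40 and 11.28 in wild type against 11.12 and 11.47 in the heterozygotes. Nid2, a nidogen that links laminin to collagen IV, read 7.31 and 8.0 in wild type and 8.63 and 8.71 in the heterozygotes.

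Matrix proteases and their inhibitors had 16 of 21 genes higher, with 9 separated higher and 2 lower (17.6% and 18.4% over all genes). Of the 21, 4 were higher at an unadjusted p under 0.05 (2.37% over all genes), and the median was 0.52. Against wild type 2 alone the median was 0.052 and 12 were higher, while against wild type 1 it was 0.99. Timp3, an inhibitor of metalloproteases, read 9.70 and 10.78 in wild type and 11.75 and 11.61 in the heterozygotes, a difference of 1.44 (SE 0.43). Its other probe sets gave 0.75, 1.00 and 1.55. Adamts9, a protease of proteoglycans, read 5.52 and 5.15 in wild type and 7.20 and 6.83 in the heterozygotes, a difference of 1.68 (SE 0.42). Unlike the proteases as a group, both differed from wild type 2 alone, by 0.90 and 1.86. Adamts1 and Adamts5, aggrecan-cleaving enzymes, differed by 0.93 (SE 0.33) and 0.67 (SE 0.25). Plaur, the urokinase receptor, had the lowest difference at -1.31 (SE 0.74), with wild type 1 at 9.20, wild type 2 at 6.99 and the heterozygotes at 6.26 and 7.32.

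Fibroblast markers, which check the labelled cell type, were present on all arrays. All 14 passed the intensity filter, and 13 were higher in the heterozygotes, with 10 separated higher (17.6% over all genes). They had a median of 0.73, or 1.00 against wild type 1 and 0.31 against wild type 2. The summed linear level of the list was 55549 and 70205 in wild type and 79717 and 80000 in the heterozygotes. The list shares collagens and proteoglycans with those above, so it is not a separate result. In bulk RNA, fewer cells of a type and less RNA per cell cannot be told apart. Pdgfrb, a growth factor receptor of mesenchyme, read 10.30 and 11.11 in wild type and 11.82 and 11.52 in the heterozygotes, a difference of 0.96 (SE 0.32). Prrx1, a homeobox factor of limb and body wall mesenchyme, read 10.38 and 11.01 in wild type and 11.50 and 11.59 in the heterozygotes. It differed by 0.85 (SE 0.32), and by 0.33, 0.34, 0.44 and 0.71 on its other probe sets. Fap, a protease of activated fibroblasts, read 7.10 and 7.28 in wild type and 7.76 and 8.25 in the heterozygotes. Vim, the intermediate filament of mesenchyme, was near level at -0.046 (SE 0.21), with 13.81 and 13.71 in wild type against 13.73 and 13.70 in the heterozygotes. Tendon markers had 5 of 5 measured genes higher and 4 separated higher (17.6% over all genes). They had a median of 0.51, or 0.79 against wild type 1 and 0.69 against wild type 2. Thbs4, a thrombospondin of tendon, read 2.39 and 3.76 in wild type and 6.16 and 4.23 in the heterozygotes. Scx, the tendon lineage factor, overlapped at 4.66 and 5.60 in wild type and 5.73 and 5.16 in the heterozygotes. Only 3 of 12 cartilage and bone markers passed the filter, all 3 separated higher. Sox9, the cartilage lineage factor, read 6.21 and 6.62 in wild type and 7.36 and 7.09 in the heterozygotes, a difference of 0.81 (SE 0.25). The other probe set of Sox9 gave 0.48. Since a marker can pass through the group where it is high, no weight falls on that count: with no filter the median of the list turned from 1.68 (1.37 against wild type 1 and 1.07 against wild type 2) to -0.25.

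Wnt genes had mostly higher readings in the heterozygotes. Of 27 measured, 21 were higher, with 13 separated higher and 1 lower (17.6% and 18.4% over all genes). At an unadjusted p under 0.05, 6 were higher and 1 lower (2.37% and 1.95% over all genes). The median was 0.76, or 0.87 against wild type 1 and 0.37 against wild type 2. Wnt4, the ligand with the lowest difference, read 5.08 and 5.31 in wild type and 4.52 and 3.83 in the heterozygotes, a difference of -1.02 (SE 0.31); it was the separated gene in that direction. Lgr5, a receptor for R-spondins, read 4.84 and 6.34 in wild type, 8.02 and 7.23 in the heterozygotes and 8.71 and 7.57 in the homozygotes, a difference of 2.03 (SE 0.61). Its relative Lgr4 read 8.61 and 8.64 in wild type and 9.63 and 9.31 in the heterozygotes, a difference of 0.85 (SE 0.26) that was much alike against wild type 1 (0.87) and wild type 2 (0.83). Of the secreted antagonists, Sfrp1 read 7.08 and 8.94 in wild type and 9.78 and 9.50 in the heterozygotes, and Sfrp2, the highest of the group at 2.96 (SE 1.33), read 4.93 and 6.77 in wild type and 10.18 and 7.43 in the heterozygotes. The Sfrp2 heterozygotes differed from each other more than heterozygote 2 differed from wild type 2.

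BMP and Id genes had 12 of 17 higher, with 8 separated higher and 1 lower (17.6% and 18.4% over all genes). Their median was 0.33, or 0.47 against wild type 1 and 0.21 against wild type 2. Without heterozygote 1 the median was 0.049. Bmp4, a ligand that patterns limb and body wall, read 7.34 and 8.84 in wild type and 10.42 and 9.20 in the heterozygotes, a difference of 1.72 (SE 0.61). Bmp5, a ligand of skeletal patterning, was lower with 5.22 and 5.03 in wild type and 3.78 and 4.76 in the heterozygotes, a difference of -0.85 (SE 0.35). Id2, a target of BMP signalling, read 8.0 and 8.46 in wild type and 9.38 and 9.21 in the heterozygotes. It differed by 1.07 (SE 0.50), but by 0.46 on its other probe set. The BMP effector Smad5 differed by 0.50 (SE 0.26) on its brightest probe set, but its other probe sets gave -0.35 and -0.18. TGF-beta and activin genes had 13 of 22 higher, with 8 separated higher and 3 lower (17.6% and 18.4% over all genes). Their median was 0.13, or 0.14 against wild type 1 and 0.11 against wild type 2. Fst, the secreted inhibitor of activin, was lower at 9.71 and 9.38 in wild type and 8.83 and 8.77 in the heterozygotes, a difference of -0.75 (SE 0.24). Of the receptors, Tgfbr2 read 10.23 and 10.83 in wild type and 11.37 and 11.46 in the heterozygotes, and of the ligands, Tgfb3 read 9.84 and 9.79 in wild type and 10.29 and 10.21 in the heterozygotes. Inhba, a subunit of activin, and Tgfbi, a matrix protein named for its response to TGF-beta, differed by -0.90 (SE 0.64) and 1.53 (SE 1.09), but against wild type 2 alone both turned sign, to 0.089 and -0.16.

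Growth factor genes of fibroblasts went both ways, with 16 of 26 higher, 11 separated higher and 6 lower (17.6% and 18.4% over all genes). Their median was 0.27, or 0.31 against wild type 1 and 0.25 against wild type 2. The insulin-like growth factor binding proteins led the higher genes: Igfbp2 read 7.62 and 9.55 in wild type and 11.07 and 10.45 in the heterozygotes, a difference of 2.18 (SE 0.81), and Igfbp4 read 9.07 and 11.20 in wild type and 12.25 and 11.85 in the heterozygotes, a difference of 1.91 (SE 0.73). The Fgf receptor gene Fgfr1 differed by 0.72 (SE 0.25) on its brightest probe set and by 0.50 and -0.029 on the others. Fgf2, a ligand of these receptors, had the lowest difference at -1.55 (SE 0.63), with 6.26 and 4.35 in wild type, 3.37 and 4.15 in the heterozygotes and 4.86 and 5.32 in the homozygotes. For Fgf2 wild type 1 was the high array, as the differences from each wild type, -2.50 and -0.59, show.

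Hox genes, which encode the position of a cell along the body axis and the limb, had lower readings in the heterozygotes. Of 26 measured, 20 were lower, with 15 separated lower and 2 higher (18.4% and 17.6% over all genes). At an unadjusted p under 0.05 there were 10, all lower (1.95% over all genes). The median was -0.61, and it was nearly the same against wild type 1 (-0.69) and wild type 2 (-0.59). It was -0.41 without heterozygote 1 and -0.90 without heterozygote 2. Hoxc8 read 8.95 and 8.64 in wild type, 6.36 and 7.57 in the heterozygotes and 7.22 and 8.02 in the homozygotes, a difference of -1.83 (SE 0.47) and 3.55-fold lower. Hoxc5 read 7.71 and 7.24 in wild type, 5.17 and 6.19 in the heterozygotes and 5.54 and 6.19 in the homozygotes, and its other probe set differed by -2.68. Hoxa7 read 7.20 and 6.63 in wild type, 5.03 and 5.37 in the heterozygotes and 5.45 and 6.49 in the homozygotes. In these genes heterozygote 1 was the lowest of the 6 arrays, and the homozygote means lay between those of the heterozygotes and wild type. Hoxc6 differed by -1.33 (SE 0.33), and by -1.64 and -0.95 on its other probe sets.

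By paralog group, the number in a Hox gene's name that gives its order along the cluster, the lower readings lay in groups 2 to 9. This grouping was made after the values were seen. Of the 18 measured genes of these groups, 16 were lower and 13 separated lower (18.4% over all genes). They had a median of -1.06, or -1.23 against wild type 1 and -0.78 against wild type 2. Of the 8 genes of groups 10 to 13, 4 were lower and 4 higher, with a median of 0.0081, or 0.14 against wild type 1 and -0.051 against wild type 2. The gene with the highest difference was Hoxd13, which patterns the digits, at 0.58 (SE 0.39) with 8.67 and 9.56 in wild type and 9.95 and 9.43 in the heterozygotes. The range was from -1.83 to 0.49 in groups 2 to 9 and from -0.62 to 0.58 in groups 10 to 13.

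**Figure D3:**
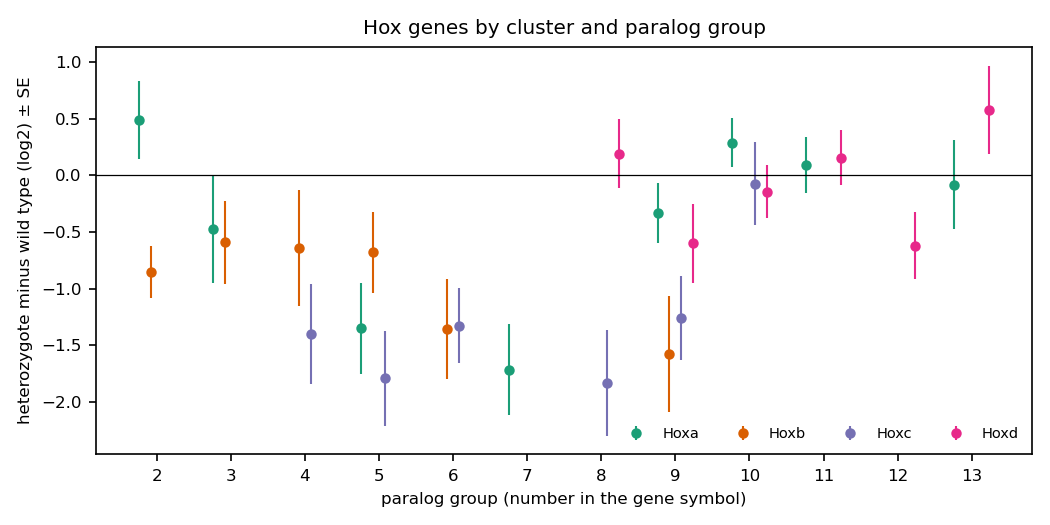
Difference between heterozygotes and wild type (log2, vertical) for the 26 measured Hox genes by paralog group (horizontal), coloured by cluster, with bars of 1 SE from the limma fit. Groups 4 to 7 lie below 0 throughout, down to -1.79 for Hoxc5, and the genes of groups 10 to 13 lie on both sides of 0.

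Other transcription factors of mesenchymal position went both ways, with 19 of 33 higher, 10 separated higher and 4 lower (17.6% and 18.4% over all genes). They had a median of 0.28, which was 0.40 against wild type 1 and 0.0081 against wild type 2. Irx3, an Iroquois factor of limb and flank, read 7.38 and 7.93 in wild type, 8.94 and 8.85 in the heterozygotes and 8.19 and 7.67 in the homozygotes, a difference of 1.24 (SE 0.30). Its neighbour Irx5 read 6.24 and 6.60 in wild type and 7.46 and 7.20 in the heterozygotes, with homozygotes at 6.60 and 6.64. For both Iroquois genes the homozygotes stood nearer to the wild type than to the heterozygotes. Msx2, a target of BMP signalling in limb and skull, read 7.38 and 6.69 in wild type and 6.01 and 5.42 in the heterozygotes, a difference of -1.32 (SE 0.36). Tbx5, the forelimb factor, read 5.80 and 6.11 in wild type, 4.59 and 5.11 in the heterozygotes and 6.03 and 6.53 in the homozygotes, a difference of -1.10 (SE 0.30), while its other probe set gave -0.17. Meox2, a factor of somites and limb muscle, was the highest at 1.95 (SE 0.62), with 4.84 and 6.74 in wild type and 8.17 and 7.31 in the heterozygotes. Retinoid genes had 6 of 11 higher and a median of 0.18, which was 0.56 against wild type 1 and -0.20 against wild type 2, with 7 of 11 lower there. The retinoic acid receptor Rarb read 5.73 and 5.60 in wild type and 4.12 and 5.20 in the heterozygotes, a difference of -1.0 (SE 0.44).

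Actin and serum response factor (SRF) genes, the transcriptional readout of actin assembly, had lower readings. Of 26 measured, 24 were lower, with 12 separated lower and 1 higher (18.4% and 17.6% over all genes). None was at an unadjusted p under 0.05. The median was -0.27, made up of -0.45 against wild type 1 and -0.087 against wild type 2. Cnn1, calponin of contractile cells, had the lowest difference at -1.51 (SE 0.98), with 10.96 and 9.95 in wild type, 8.67 and 9.22 in the heterozygotes and 7.45 and 10.64 in the homozygotes. Actg2, a smooth muscle actin, read 11.21 and 10.26 in wild type and 9.10 and 9.89 in the heterozygotes, with homozygotes at 9.0 and 10.96. In both genes the homozygotes differed from each other by more than the heterozygotes differed from wild type. Fhl2, a LIM protein that binds SRF cofactors, read 10.20 and 9.60 in wild type and 8.98 and 9.45 in the heterozygotes, a difference of -0.69 (SE 0.35), and Filip1l, a regulator of migration, read 10.38 and 9.61 in wild type and 8.88 and 9.59 in the heterozygotes. Ahnak, a giant scaffold protein, was the separated higher gene at 0.44 (SE 0.23), but its other probe sets gave -0.85 and -0.36.

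SRF binds the CArG box, which was searched by its consensus in the same 300-base promoters. Of the 26 genes, 22 were matched, and 9 of their 27 promoters (33.3%) held a CArG box against 1.63% of all promoters. SRF targets are defined by such sites, so this share describes the list and not the heterozygotes. The promoters of Fhl2 (chr1:43163912-43164211, reverse strand, 1 of 2 listed) and of Myl9, a myosin light chain with 12.85 and 12.39 in wild type and 12.12 and 12.32 in the heterozygotes (chr2:156775214-156775513, forward strand), are shown as examples chosen after their values were seen. Capitals mark the CArG box.
Fhl2: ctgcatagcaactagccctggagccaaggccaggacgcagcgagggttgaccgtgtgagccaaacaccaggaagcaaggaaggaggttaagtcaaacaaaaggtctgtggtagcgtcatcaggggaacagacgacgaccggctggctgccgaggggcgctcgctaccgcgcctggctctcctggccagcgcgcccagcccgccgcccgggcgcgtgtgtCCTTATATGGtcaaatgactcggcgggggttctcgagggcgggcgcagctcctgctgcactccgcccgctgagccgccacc
Myl9: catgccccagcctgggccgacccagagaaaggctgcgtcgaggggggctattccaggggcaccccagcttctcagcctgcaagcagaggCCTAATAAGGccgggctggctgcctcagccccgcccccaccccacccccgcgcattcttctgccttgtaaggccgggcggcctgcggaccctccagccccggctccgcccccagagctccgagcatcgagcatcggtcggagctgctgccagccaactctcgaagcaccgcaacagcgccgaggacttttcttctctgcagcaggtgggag
The box begins 31 bases before the start in Fhl2 and 161 bases before it in Myl9.

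Smooth muscle and pericyte markers, which share Cnn1, Myl9 and others with the actin genes, had 9 of 11 lower. Of these 11, 8 were separated lower and 2 higher (18.4% and 17.6% over all genes), and the median was -0.59. It was -0.74 against wild type 1 and, without that array, -0.25 against wild type 2. Their summed linear level was 33263 and 28455 in wild type and 23995 and 25872 in the heterozygotes. Mcam, an adhesion molecule of pericytes, read 7.85 and 6.43 in wild type and 4.84 and 5.69 in the heterozygotes, a difference of -1.87 (SE 0.68). Myh11, the smooth muscle myosin, read 7.30 and 6.27 in wild type and 5.11 and 5.81 in the heterozygotes, and Des, desmin of muscle, read 6.44 and 6.36 in wild type and 4.10 and 5.89 in the heterozygotes. Smtn, smoothelin of contractile smooth muscle, was higher at 0.41 (SE 0.24). Whether these cultures held fewer contractile cells was not tested. Targets of YAP and TEAD, another readout of cell tension, had 9 of 14 lower with a median of -0.19, which was -0.47 against wild type 1 and turned to 0.13 against wild type 2.

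Glycolysis and hypoxia genes had lower readings of small size. Of 24 measured, 21 were lower, with 9 separated lower and 1 higher (18.4% and 17.6% over all genes). None was at an unadjusted p under 0.05. The median was -0.31, and it was -0.31 against wild type 1 and -0.29 against wild type 2, with 21 lower in each. It was -0.19 without heterozygote 1 and -0.49 without heterozygote 2. Slc2a1, the main glucose transporter, read 10.88 and 10.52 in wild type, 9.83 and 10.44 in the heterozygotes and 10.12 and 10.39 in the homozygotes, a difference of -0.57 (SE 0.30); its other probe sets gave -0.65 and -0.56. Pfkp, a phosphofructokinase, read 8.39 and 8.37 in wild type and 7.88 and 7.95 in the heterozygotes, a difference of -0.46 (SE 0.24). Pgam1, phosphoglycerate mutase, read 11.89 and 11.55 in wild type and 11.12 and 11.38 in the heterozygotes. Heterozygote 1 was the lower of the heterozygotes for Slc2a1, Pfkp and Pgam1, and heterozygote 2 came within 0.085 of wild type 2 for Slc2a1. Aldoc, an aldolase of brain, went the other way at 1.06 (SE 0.44), and Egln3, an oxygen sensor, had the lowest difference at -1.02 (SE 0.62) but overlapped.

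The hypoxia factor binding core, ACGTG on either strand, was in 20 of the 32 promoters of this list (62.5%, 23 of 24 genes matched) and in 19.6% of all promoters. The list was drawn up from known hypoxia and glycolysis genes, so this share too describes the list and not the heterozygotes. The promoters of Pgk1, phosphoglycerate kinase (chrX:106186850-106187149, forward strand), and Ldha, lactate dehydrogenase (chr7:46845554-46845853, forward strand, 1 of 2 listed), are shown as examples chosen after their values were seen. Capitals mark ACGTG or its complement.
Pgk1: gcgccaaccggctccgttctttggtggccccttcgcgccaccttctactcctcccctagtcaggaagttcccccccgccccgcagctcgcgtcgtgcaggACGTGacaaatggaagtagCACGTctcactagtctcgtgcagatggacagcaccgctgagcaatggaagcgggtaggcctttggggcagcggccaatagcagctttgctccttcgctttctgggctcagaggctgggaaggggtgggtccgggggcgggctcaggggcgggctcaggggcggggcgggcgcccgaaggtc
Ldha: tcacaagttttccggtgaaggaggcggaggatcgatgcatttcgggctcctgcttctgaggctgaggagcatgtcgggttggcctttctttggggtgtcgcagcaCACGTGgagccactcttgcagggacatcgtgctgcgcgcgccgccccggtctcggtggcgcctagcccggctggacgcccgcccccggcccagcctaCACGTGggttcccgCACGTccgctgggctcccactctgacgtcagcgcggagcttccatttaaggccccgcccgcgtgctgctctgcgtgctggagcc
Pgk1 read 12.74 and 12.54 in wild type and 11.99 and 12.45 in the heterozygotes, a difference of -0.42 (SE 0.26). Ldha read 12.79 and 12.49 in wild type and 12.08 and 12.44 in the heterozygotes, a difference of -0.38 (SE 0.26). The promoter of Pgk1 holds 2 such matches and that of Ldha 3.

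**Figure D4:**
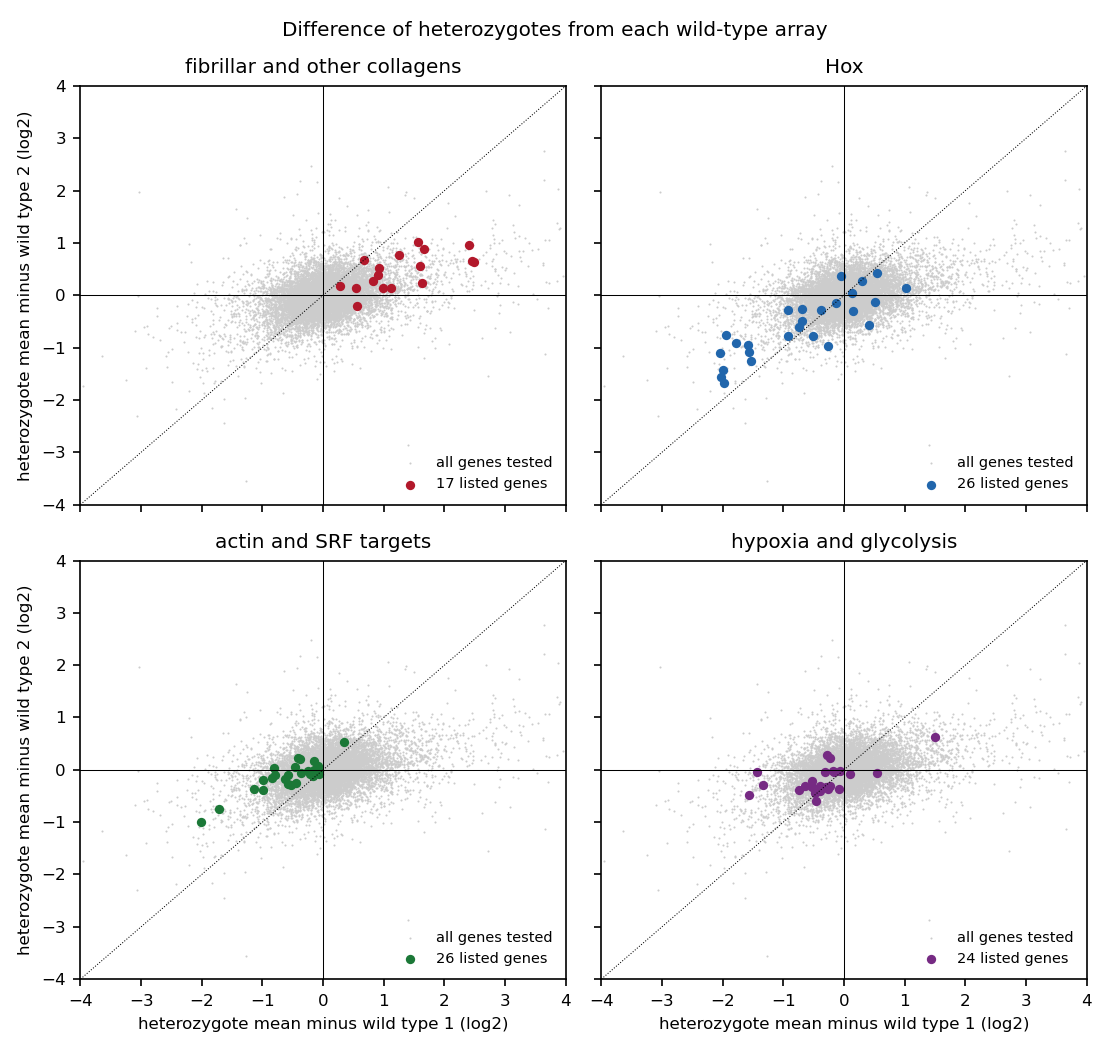
Difference of the heterozygote mean from wild type 1 (horizontal) and from wild type 2 (vertical) in log2 units, 1 point per gene, for 4 gene lists (coloured) over all 11373 genes (grey; 16 lie beyond the axes at 4). Collagens fall mostly upper right, farther from wild type 1 (median 1.11) than from wild type 2 (0.52), while Hox genes lie lower left near the diagonal (medians -0.69 and -0.59).

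Genes of oxidative stress had 10 of 13 lower, with 6 separated lower (18.4% over all genes) and none higher. Their median was -0.22, or -0.068 against wild type 1 and -0.31 against wild type 2. Hmox1, heme oxygenase, read 10.56 and 10.48 in wild type and 10.09 and 9.25 in the heterozygotes, a difference of -0.85 (SE 0.36). Srxn1, sulfiredoxin, read 8.78 and 8.56 in wild type and 8.20 and 8.24 in the heterozygotes, and its other probe sets lay lower too, from -1.28 to -0.49. Gclc, which begins glutathione synthesis, read 7.72 and 7.41 in wild type and 7.36 and 7.0 in the heterozygotes. Gsta4, a glutathione transferase, overlapped in the other direction, with 7.19 and 8.55 in wild type and 9.84 and 8.43 in the heterozygotes. Oxidative phosphorylation genes had 14 of 20 lower with a median of -0.067, or -0.0074 against wild type 1 and -0.11 against wild type 2. Cytosolic ribosomal proteins were level, with 8 of 17 higher and a median of -0.0017, or 0.0043 against wild type 1 and -0.00089 against wild type 2.

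Markers of other cell types were examined for a shift in makeup. Macrophage markers were present in every culture, and 16 of 19 passed the filter (Aif1, Itgam and Cx3cr1 did not). Their summed linear level was 3387 and 8080 in wild type and 6270 and 5559 in the heterozygotes, so the heterozygotes lay between the wild-type arrays. The median was 0.0095, but 0.77 against wild type 1 and -0.71 against wild type 2. Lyz2, lysozyme of macrophages, read 10.54 and 11.67 in wild type and 11.59 and 11.43 in the heterozygotes, and Mrc1, the mannose receptor, read 5.92 and 6.80 in wild type and 6.63 and 7.14 in the heterozygotes. Cd14, a receptor for endotoxin, and Cd53, a tetraspanin of leukocytes, were separated lower, by -0.63 (SE 0.34) and -0.51 (SE 0.48). Interferon-stimulated genes had the same form, with 20 of 25 higher, 3 separated higher and 2 lower (17.6% and 18.4% over all genes). They had a median of 0.34, which was 0.75 against wild type 1 and -0.23 against wild type 2. Psmb8, an immunoproteasome subunit, read 5.96 and 7.21 in wild type and 7.96 and 7.24 in the heterozygotes, and Oasl1, an interferon-induced gene, read 5.53 and 4.69 in wild type and 2.66 and 4.62 in the heterozygotes. Chemokines and cytokines had 13 of 23 higher and a median of 0.13, which was 0.35 against wild type 1 and -0.11 against wild type 2, with 15 of 23 lower there, and which also turned below 0 without heterozygote 2. The neutrophil attractant Cxcl5 read 9.11 and 10.70 in wild type and 11.21 and 11.51 in the heterozygotes, a difference of 1.45 (SE 0.52). Ptgs2, the inducible cyclooxygenase, ranged from 6.63 to 11.76 over the 4 arrays.

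Of 12 endothelial markers, 7 passed the filter, and the defining Pecam1, Cdh5, Tie1, Esam and Cldn5 did not. Emcn, endomucin, read 6.44 and 5.23 in wild type and 3.35 and 4.36 in the heterozygotes, a difference of -1.98 (SE 0.66), and Erg, a transcription factor of endothelium and cartilage, read 3.60 and 5.42 in wild type and 6.23 and 6.62 in the heterozygotes, a difference of 1.91 (SE 0.66). The median was -0.34, or -0.27 against wild type 1 and -0.37 against wild type 2, and 0.11 when all probe sets of a gene were averaged. The list had 1 separated higher and 4 lower (17.6% and 18.4% over all genes). Its summed level was 496 and 460 in wild type and 424 and 402 in the heterozygotes. Of 15 skeletal muscle markers 5 passed, without the lineage factors Myod1, Myog, Myf5 and Myf6, and their summed level was 3198 and 723 in wild type and 293 and 484 in the heterozygotes. The brightest of them by far was Acta1, the skeletal muscle actin, with 11.54 and 9.07 in wild type and 7.46 and 8.34 in the heterozygotes, so the sum mainly follows that gene, which is named here after its values were seen. The median of the 5 was -0.40, or -0.80 against wild type 1 and -0.28 against wild type 2, and 0.068 with no intensity filter. Of 11 epithelial markers 4 passed, with Cdh1, Trp63, Krt5 and Krt14 below the filter and a median of -0.83, or -1.20 against wild type 1 and -0.37 against wild type 2; with no filter the median was 0.0059. Erythroid markers had none of 7 on the array above the filter and hepatocyte markers 1. Neural and glial markers had 6 of 8 lower with a median of -0.30, or -0.79 against wild type 1 and -0.028 against wild type 2, which turned to 0.093 without heterozygote 1 and to 1.12 in the upper 25% of intensity. Adipocyte markers had 4 of 6 higher with a median of 0.33, or 0.52 against wild type 1 and 0.027 against wild type 2, which turned to -0.084 without heterozygote 1. The part of any of these cells in the differences above was not tested.

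**Figure D5:**
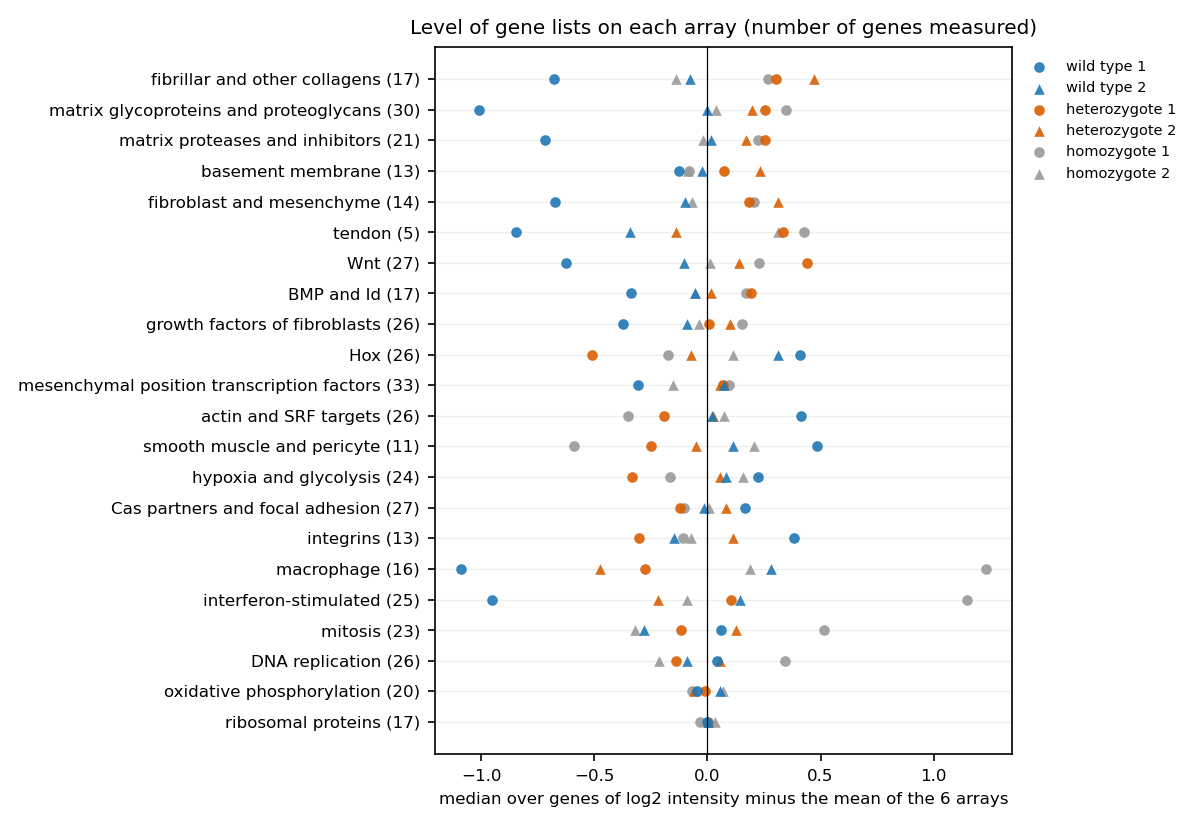
Level of 22 gene lists on each array, as the median over the list's genes of log2 intensity minus that gene's mean over the 6 arrays; the number of genes is in brackets. Collagens stand at -0.68 and -0.077 in wild type and 0.30 and 0.47 in the heterozygotes, and Hox genes at 0.41 and 0.31 against -0.51 and -0.070, while the wild-type arrays lie far apart for macrophage genes, at -1.09 and 0.28, and for interferon-stimulated genes, at -0.95 and 0.14.

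Growth and cell cycle lists had small medians, most of them with opposite signs against wild type 1 and wild type 2. Mitosis genes had 17 of 23 higher and 3 separated higher (17.6% over all genes), with a median of 0.17. That median was -0.048 against wild type 1, with 9 of 23 higher, and 0.36 against wild type 2, with 22 of 23 higher. DNA replication genes had 11 of 26 higher and a median of -0.037, or -0.13 against wild type 1 and 0.085 against wild type 2. Targets of p53 and cell cycle inhibitors had 9 of 20 higher, 5 separated higher and 2 lower (17.6% and 18.4% over all genes). They had a median of -0.025, or -0.011 against wild type 1 and -0.028 against wild type 2. Immediate early genes had 11 of 21 higher and a median of 0.063, with -0.38 against wild type 1 and 0.44 against wild type 2. Cholesterol synthesis had 8 of 18 higher with a median of -0.047, which was -0.35 against wild type 1 and 0.27 against wild type 2. The endoplasmic reticulum stress and amino acid response had 17 of 24 higher with a median of 0.091, or 0.17 against wild type 1 and -0.012 against wild type 2. None of these lists shifted by as much as the collagens or the Hox genes.

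X-linked genes that escape inactivation, of which female cells express both copies, had 6 of 7 higher and 3 separated higher (17.6% over all genes). They had a median of 0.25, which was 0.20 against wild type 1 and 0.58 against wild type 2. With a covariate for embryo sex the median turned to -0.17. Kdm6a, a histone demethylase, read 6.60 and 5.36 in wild type, 6.90 and 6.71 in the heterozygotes and 6.13 and 6.33 in the homozygotes. Wild type 1 was thus near the heterozygotes and wild type 2 below, with the homozygotes between the wild-type arrays. Kdm5c, another demethylase, read 8.16 and 7.97 in wild type, 8.50 and 8.35 in the heterozygotes and 7.51 and 7.62 in the homozygotes. Mid1, a microtubule-binding ubiquitin ligase, read 4.89 and 5.98 in wild type, 7.19 and 6.54 in the heterozygotes and 6.88 and 5.81 in the homozygotes. Its difference was 1.43 (SE 0.51), and wild type 1 was the lowest of the 6 arrays. Within 10 Mb of Bcar1, which is the region that lies closest to the deletion, 133 genes were measured. Of these, 59 were higher and 74 lower, 18 separated higher and 35 lower, with 2 and 3 at an unadjusted p under 0.05 and a median of -0.057, or -0.012 against wild type 1 and -0.12 against wild type 2. Over all genes, 17.6% were separated higher and 18.4% lower, and 2.37% were higher and 1.95% lower at an unadjusted p under 0.05. Cenpn, a centromere protein, was higher by 0.73 against each wild-type array alone, with 6.78 and 6.77 in wild type and 7.36 and 7.64 in the heterozygotes, and its other probe set gave 0.20. Mlycd, malonyl-CoA decarboxylase, had the lowest difference, -1.17 (SE 0.38), with 6.03 and 6.65 in wild type and 5.05 and 5.28 in the heterozygotes. Cdyl2, a chromodomain protein, read 6.71 and 6.10 in wild type and 5.52 and 5.34 in the heterozygotes, a difference of -0.98 (SE 0.27). The other probe set of Cdyl2 gave -0.45. Zfp1, a zinc finger gene, was highest at 1.92 (SE 0.68), with 3.0 and 5.20 in wild type and 6.09 and 5.94 in the heterozygotes.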

How the data were processed

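The authors deposited linear probe set intensities of 45101 Affymetrix probe sets on 6 arrays; the sources used here give no scanner software, probe summary or scaling. Biotin-labelled cRNA was made from 2 µg of total RNA, per the labels' protocols. Each deposited intensity was converted to log2(intensity + 1.78), the pseudocount being the 10th percentile, which understates changes of dim probe sets, and the arrays were quantile normalized. After 64 controls were dropped, the upper 50% by mean log2 intensity were tested, down to a mean of 4.57. Of the probe sets, 34945 had 1 gene symbol, 932 several and 9160 none. Each gene was read from its probe set with the highest mean. Other probe sets are given for some genes only, and in several named genes they differed by less. The test was limma 3.58.1 (lmFit and eBayes, R 4.3.3) with all 6 arrays in 1 fit, 3 residual and 3.28 prior degrees of freedom, Benjamini-Hochberg adjustment and a threshold of 0.05. The procedure was tested on simulated data.

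Named genes were Bcar1, Efs, Xist and Y-linked genes, the 15 separated genes per direction with the smallest p and 8 with the widest gap, leaving out predicted genes, and per list the 4 members with the smallest p and the highest and lowest. The genes and lists were chosen with earlier results of these data known. The labels do not say that replicate numbers mark a litter, day or batch, so no pairing was used. Deviations of same-numbered arrays correlated at -0.36 between wild type and heterozygotes. That value does not tell whether arrays were paired in another order. The alternatives are given in the closing section. Some genes are not reported here.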

Additional observations from a re-analysis of the deposited data

How the results depend on the processing

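No alternative called more than 1 probe set. With a covariate for embryo sex 1 was called (Egfl6, 7.47, limma adjusted p 0.0373), and without wild type 1, 1 was called (the Y-linked Eif2s3y, -6.90, adjusted p 0.0264); leaving out each array in turn gave 0 to 1. The other alternatives called 0. At an unadjusted p under 0.05, against 1185, there were 2652 with no intensity filter, 505 in the upper 25%, 3082 with the sex covariate, and from 539 (without heterozygote 1) to 2733 (without wild type 2) when 1 array was left out, with 636 without wild type 1. A replicate block, which the numbers do not justify, gave 790 and 0 called; a crossed replicate pairing, added after seeing the data, gave 2524. Among 155 named genes, direction turned with the sex covariate for Xist (-0.039), Cd53 (0.013) and Kdm6a (-0.17). Xist is part of that covariate, so its change there was built in. Within genotypes the covariate mostly follows the gap between the wild-type arrays. With the mean of all probe sets, direction turned for Smad5 (-0.0083) and Ahnak (-0.26). With 1 array left out it turned for 10 genes, which spanned -0.097 to 0.0044 (Vim), -0.58 to 0.92 (Col24a1), -1.09 to 0.31 (Ccn2), -0.22 to 0.13 (Lamb1), -0.16 to 0.79 (Scx), -0.16 to 3.21 (Tgfbi), -1.89 to 0.089 (Inhba), -0.16 to 0.97 (Lyz2), -0.38 to 0.0094 (Shroom4) and -3.61 to 0.54 (Ptgs2); all but Ptgs2, which turned without heterozygote 1, turned without wild type 1. Of 41 gene lists with a median, 17 kept its sign under every alternative run, among them collagens, matrix glycoproteins, fibroblast markers, Wnt, Hox, actin, smooth muscle and glycolysis genes, and 24 did not. The causes were not tested. Detection calls were not used here, so a dim reading is not told from background other than by the intensity filter.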
